A study of Rattus norvegicus with 4 samples.

Results

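The genes described here encode the extracellular matrix of the rat vestibular ganglion and the receptors and enzymes that act on it: collagens, laminins, fibronectin, Sparc, lumican, Mgp, fibulins, thrombospondins, integrin chains, matrix metalloproteinases and their inhibitors, the TIMPs. They were chosen by gene symbol, without Itga11, and with earlier results of these data known. Of the 35126 probes of the array, 123 matched the symbols, 2 of them for Itga11, and 13 lay in a stretch of the table whose names could not be placed and were not read. The remaining 108 probes of 80 genes are the members, out of 14667 single-symbol probes of 11039 genes that were read.

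The samples were vestibular ganglion neurons of the rat, the primary afferents that carry signals from the balance organs, collected by laser capture under immunofluorescence for the calcium-binding protein calretinin. The series' design text calls the positive cells calyceal afferents, which wrap hair cells in calyces, and the negative cells dimorphic and bouton afferents. Pooled total RNA was labelled with Cy5, and each of the 2 groups had 2 arrays, called positive and negative libraries after their titles. The free-text descriptions say calretinin-positive for all 4 samples, so the titles alone set the groups. No treatment, strain, age or animal number is given in the sources used here.

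Laminins are trimers of an alpha, a beta and a gamma chain that, with type IV collagen, build the basement membrane, the sheet that surrounds Schwann cells, vessels and epithelia. Fibril-forming collagens make the tensile matrix of connective tissue such as the sheaths of nerves and ganglia. Integrins are receptors of an alpha and a beta chain that bind these proteins and tie them to the cytoskeleton, and metalloproteinases cut the matrix while TIMPs inhibit them.

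Values are probe intensities on the deposited linear scale, on which each array's median lay near 0.99, and log2 changes are positive minus negative. A probe was tested with limma where its mean log2 value lay above the 40th percentile of the table, at an intensity of 0.457, and called at a Benjamini-Hochberg adjusted p under 0.05 over all 21070 tested probes. Where a group lay below that intensity, its level is printed without a fold. Arrays of 1 group correlated at r = 0.995 across probes in each group and arrays of different groups at 0.929 to 0.93. The p-values measure the spread between these arrays, which may be technical, and an exact permutation test of 2 arrays against 2 could not go below 0.333. Calb2, which encodes calretinin, had 290.8 and 327.6 in the positive libraries, against 138.5 and 129.1 in the negative libraries.

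Of the 108 member probes, 68 were tested, for 55 genes. Of these, 20 were higher in the positive libraries, 29 were lower and 19 did not pass the test. The share called was 72.1%, against 64.6% of all tested probes, so a call by itself says little about the members. Members called higher made up 29.4%, against 40.9% of all tested probes, and members called lower 42.6%, against 23.7%. Calls of at least 2-fold were made for 8 higher and 14 lower members, 32.4% in all, against 15.4% of all tested probes, 8.3% higher and 7.07% lower. Of these 22 calls, 10 had 1 group below the limit, so that their size rests on a dim level. Among members with both groups above the limit, 4 were called higher and 8 lower at 2-fold or more, 21.4%, against 12.1% of all probes of this kind. The median log2 change of the tested members was -0.14, against 0.11 for all tested probes.

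These shares depend in part on scaling, since quantile normalization moved the median change of all probes to 0.01 and cyclic loess to -0.01. Members were then 16 higher and 32 lower with quantile normalization and 14 higher and 32 lower with loess, while all probes split into 6996 higher and 6111 lower with quantile normalization and 6732 higher and 6853 lower with loess. A total of 59 of the 68 tested members had the same call in all 3 scalings, and no call changed direction. The filter let 12 members through with only 1 group above the limit, 10 of them called. Among the 56 with both groups above it, 16 were higher and 23 lower (41.1% lower, against 22.5% of all 19830 probes with both groups above it). Tested each on its own spread, with none borrowed across probes, 32 of the 68 were called, and 17 named members lost their call, among them Lamc1, Itgb4, Fbln2, Itgb1bp2, Mmp17, both Mmp15 probes and 1 of the Itga9 probes. In these captured pools, fewer cells of a type and less RNA per cell cannot be told apart.

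**Figure D1:**
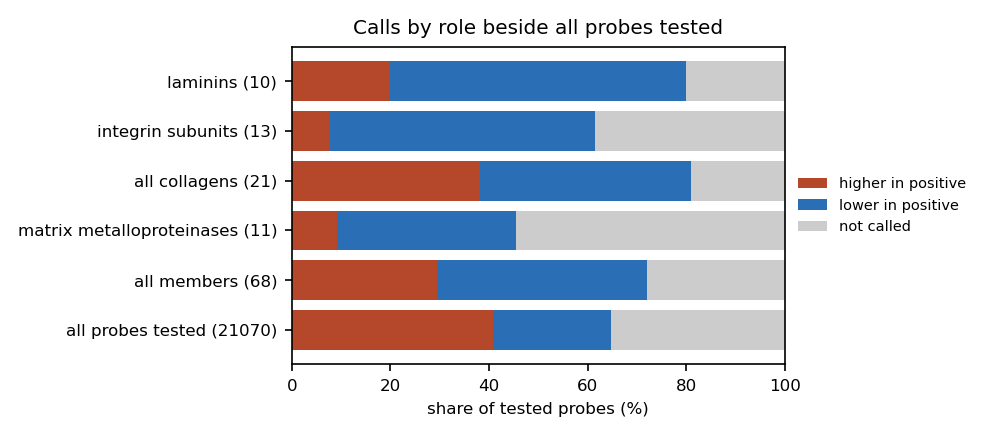
Share of tested probes, in percent, called higher in the positive libraries, called lower or not called, by role, over all 68 tested members and over all 21070 tested probes (number tested in brackets). Lower calls made up 60% of the laminins, 53.8% of the integrin chains and 42.6% of all members, against 23.7% of all tested probes.

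Most laminin chains were lower in the positive libraries. All 8 laminin genes read here had a tested probe, and of 10 tested probes 6 were lower, 2 higher and 2 not called, with a median log2 change of -0.42. The 300 bases around the annotated starts of Lama1 and Lamc3, the laminin genes with the largest differences that were lower, are shown because both genes fell together. They come from RefSeq on GRCr8, chr9:115139298-115139597 for Lama1 and chr3:35562739-35563038 for Lamc3, both on the plus strand, 5′ to 3′. Capitals mark matches, on either strand, to 4 motifs: the AP-1 site, the GC box, the TATA box and the CCAAT box.
Lama1: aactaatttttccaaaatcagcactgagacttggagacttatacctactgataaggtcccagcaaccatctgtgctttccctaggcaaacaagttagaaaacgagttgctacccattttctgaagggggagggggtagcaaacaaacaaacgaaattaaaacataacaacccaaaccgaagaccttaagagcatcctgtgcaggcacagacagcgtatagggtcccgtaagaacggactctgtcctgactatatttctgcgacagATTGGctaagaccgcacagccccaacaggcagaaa
Lamc3: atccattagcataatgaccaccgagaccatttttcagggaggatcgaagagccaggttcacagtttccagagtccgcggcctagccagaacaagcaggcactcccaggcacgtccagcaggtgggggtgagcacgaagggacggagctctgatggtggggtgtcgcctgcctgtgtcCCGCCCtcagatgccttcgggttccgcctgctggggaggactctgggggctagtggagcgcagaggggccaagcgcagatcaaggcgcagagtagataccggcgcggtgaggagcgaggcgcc
The Lama1 window held 1 CCAAT box and the Lamc3 window 1 GC box, with no match to the other motifs. Shared regulation of these genes was not tested. The promoter table held 33469 windows of this length, and 60 of the 80 member genes had one there.

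The AP-1 site was searched as TGANTCA, with any base at N, and was found in 7.33% of all promoters and in 7 of the 60 member promoters. The GC box, searched as GGGCGG, was found in 33.1% of all promoters and in 30 of the member promoters. The TATA box, searched as TATAAA, was found in 14.2% of all promoters and in 10 of the member promoters. The CCAAT box was searched by the letters of its name and found in 37.5% of all promoters and in 14 of the member promoters. These are matches of letters only.

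Lamc3, which encodes the gamma 3 chain, had intensities of 0.354 and 0.35 in the positive libraries, below the limit, against 5.84 and 6.05 in the negative libraries (limma adjusted p = 7.94e-10). Lama1, the alpha 1 chain, had 8.93 and 9.32 in the positive libraries, against 35.4 and 38.0 in the negative libraries, a log2 change of -2.01 ± 0.07 (SE, adjusted p = 5.94e-09). The groups were far apart for both genes, with the 2 arrays of each group close together.

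Lama4, the alpha 4 chain of vessels and peripheral nerve, had 8.13 and 8.22 in the positive libraries, against 15.4 and 14.6 in the negative libraries (log2 change -0.87 ± 0.07, adjusted p = 1.32e-06). A dimmer Lama4 probe, with 1.25 and 1.035 in the positive libraries, against 1.83 and 1.65 in the negative libraries, fell by 0.61 ± 0.13 on the log2 scale (adjusted p = 0.00168). A further Lama4 probe, too dim on average to be tested, ran the other way, with 0.996 and 0.922 in the positive libraries, against 0.097 and 0.061 in the negative libraries. Probes of this gene therefore disagreed, and which transcripts each probe detects was not tested.

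Lamc1, the gamma 1 chain found in most laminins, had 40.02 and 43.3 in the positive libraries, against 64.4 and 56.5 in the negative libraries (log2 change -0.53 ± 0.08, adjusted p = 0.000206). Lama5 fell by 0.31 ± 0.07 on the log2 scale, with 12.4 and 12.1 in the positive libraries, against 14.96 and 15.5 in the negative libraries (adjusted p = 0.00177). Both differences were larger than the spread within groups, though under 2-fold. They were larger with quantile normalization, -0.80 for Lamc1 and -0.48 for Lama5, and with loess, -0.77 for Lamc1 and -0.49 for Lama5.

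The 2 laminin probes called higher were those of Lama3 and Lamb2. Lama3, a chain of the laminin of epithelial anchoring sites, had 0.675 and 0.813 in the positive libraries, against 0.434 and 0.301 in the negative libraries, which lay below the limit (adjusted p = 0.006). Lamb2, the beta 2 chain, had 4.85 and 4.83 in the positive libraries, against 4.14 and 4.16 in the negative libraries (log2 change 0.22 ± 0.07, adjusted p = 0.0171). The Lamb2 call was lost with quantile normalization (0.17) and with loess (0.10), and on leaving out any 1 of the 4 arrays, where its change was 0.22 each time. Lamb3, the beta chain that pairs with Lama3 in the epithelial laminin, was not called on either probe, with 68.1 and 72.0 in the positive libraries, against 75.7 and 77.4 in the negative libraries on the brighter one, which was called lower with either normalization.

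Markers of glia and vessels moved with the groups in the same direction as the laminins. The summed intensity of the glial markers was 351 and 338 in the positive libraries, against 866 and 890 in the negative libraries. The endothelial markers summed to 41.2 and 41.4 in the positive libraries, against 95.4 and 98.3 in the negative libraries, and the mural cell markers to 17.0 and 16.2, against 46.0 and 46.5. The part of these cells in the differences of laminins, integrins and basement membrane collagens was not tested.

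Integrin chains ran the same way as the laminins. Of 13 tested probes for alpha and beta chains, 7 were lower, 1 was higher and 5 were not called, with a median log2 change of -0.69. Itga6 and Itgb4 encode the partners of the alpha 6 beta 4 integrin, a laminin receptor of epithelia and of myelinating Schwann cells. Itga6 had 1.66 and 1.63 in the positive libraries, against 9.23 and 8.92 in the negative libraries, 5.5-fold lower (log2 change -2.46 ± 0.07, adjusted p = 2.01e-09). Itgb4 had 21.4 and 24.4 in the positive libraries, against 36.6 and 37.4 in the negative libraries (log2 change -0.69 ± 0.08, adjusted p = 1.93e-05). Both chains were lower, Itga6 by the greater factor.

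Itgb1, the beta chain shared by most matrix-binding integrins, had 0.57 and 0.745 in the positive libraries, against 3.37 and 2.95 in the negative libraries (log2 change -2.27 ± 0.14, adjusted p = 3.12e-07). Itga7, a laminin-binding partner of the beta 1 chain, had 46.8 and 42.2 in the positive libraries, against 73.3 and 76.7 in the negative libraries (log2 change -0.75 ± 0.08, adjusted p = 9.09e-06). The groups did not overlap on either probe, nor on 81.6% of all tested probes.

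Itga9, whose product binds tenascin and other ligands with the beta 1 chain, was lower on both tested probes. The probe with the lower p had 0.21 and 0.113 in the positive libraries, below the limit, against 3.35 and 3.45 in the negative libraries (adjusted p = 2.08e-07). The other had 0.777 and 0.639 in the positive libraries, against 1.79 and 1.49 in the negative libraries (log2 change -1.21 ± 0.16, adjusted p = 5.8e-05). The 2 probes ran in the same direction.

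Itgb3, which pairs with the alpha v and the platelet alpha IIb chains, had 3.19 and 3.19 in the positive libraries, against 6.62 and 6.62 in the negative libraries (log2 change -1.05 ± 0.07, adjusted p = 4.32e-07). Another Itgb3 probe lay below the limit in both groups, was not tested and overlapped between groups. Itgae, the alpha E chain of lymphocytes in epithelia, was the 1 integrin chain called higher, with 14.1 and 14.7 in the positive libraries, against 9.36 and 8.56 in the negative libraries (log2 change 0.69 ± 0.07, adjusted p = 1.32e-05). Further Itgae probes lay below the limit in both groups, were not tested and overlapped between groups. The brighter of these had 0.4565 and 0.273 in the positive libraries, against 0.396 and 0.268 in the negative libraries. Itga3, Itga8 (on both probes), Itgam and Itgb7 were not called, their log2 changes lying between -0.25 and 0.08. Itga8, the chain of an integrin receptor of nephronectin, had 1.45 and 1.36 in the positive libraries, against 1.51 and 1.85 in the negative libraries on the first probe, and missed the threshold (adjusted p = 0.0937).

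**Figure D2:**
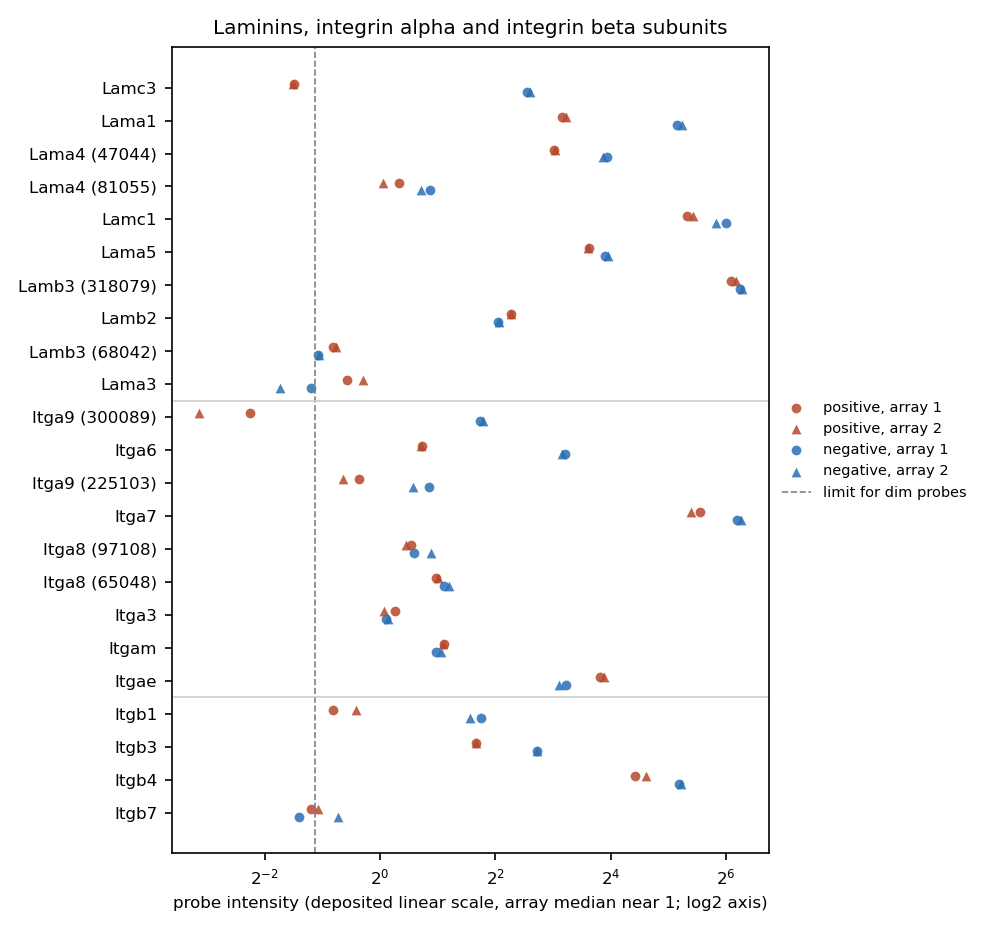
Intensity on each array (deposited scale, log2 axis) for every tested laminin and integrin chain probe, with probe IDs where a gene has several; each point is 1 array and the dashed line the limit of 0.457 for dim probes. Lamc3, Itga6, Itgb1 and Itga9 are lower in the positive libraries, where Lamc3 and 1 Itga9 probe lie below the limit, while the tested Itgae probe is higher.

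The symbol rule also took in 4 genes that are not integrin chains, of which Itgb1bp1, Itgb1bp2 and Itgbl1 were higher and Itgb3bp was not called. Itgbl1, a secreted protein with repeats like those of integrin beta chains, had 7.1 and 6.79 in the positive libraries, against 1.52 and 1.28 in the negative libraries (log2 change 2.31 ± 0.10, adjusted p = 1.72e-08). Itgb1bp1, which binds the tail of the beta 1 chain inside the cell, had 17.0 and 17.2 in the positive libraries, against 11.5 and 11.5 in the negative libraries (log2 change 0.57 ± 0.06, adjusted p = 2.33e-05). Itgb1bp2, melusin, had 1.84 and 2.19 in the positive libraries, against 0.593 and 0.34 in the negative libraries, which on average lay below the limit (adjusted p = 1.64e-05). These 4 were grouped from their symbols, apart from the chains, and the 3 that were called ran opposite to most of the chains.

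Among collagens of basement membranes, 3 of 4 tested probes were lower and none was higher. Col4a1, the alpha 1 chain of the network collagen IV, had 14.8 and 15.6 in the positive libraries, against 27.8 and 27.6 in the negative libraries (log2 change -0.87 ± 0.07, adjusted p = 1.3e-06). Col18a1, which carries endostatin at its end, had 1.7 and 1.66 in the positive libraries, against 2.26 and 2.34 in the negative libraries (log2 change -0.45 ± 0.09, adjusted p = 0.00124). Col15a1 had 0.502 and 0.408 in the positive libraries, against 1.16 and 1.13 in the negative libraries, the positive mean lying below the limit (adjusted p = 0.000114). Col4a3, a chain of the glomerular and cochlear basement membranes, overlapped between groups, with 1.69 and 1.31 in the positive libraries, against 1.37 and 1.62 in the negative libraries. Further probes of Col4a1, Col15a1 and Col4a3 lay below the limit in both groups and were not tested.

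Of 9 tested probes of fibril-forming collagens, 4 were higher, 3 lower and 2 not called on the deposited scale, but 1 was higher, 3 lower and 5 not called with either normalization. Col2a1, the collagen of cartilage and of the inner ear's acellular membranes, had 2.54 and 2.79 in the positive libraries, against 5.87 and 5.32 in the negative libraries (log2 change -1.07 ± 0.08, adjusted p = 1.5e-06). Col11a1, its fibril partner, had 0.334 and 0.286 in the positive libraries, below the limit, against 0.889 and 0.843 in the negative libraries (adjusted p = 0.000284). Both partners were lower.

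Type I collagen, the main fibril of connective tissue, differed little. Col1a2 had 31.6 and 36.3 in the positive libraries, against 31.2 and 34.4 in the negative libraries, and was not called. Col1a1 was called lower on 1 of 2 probes, with 19.2 and 20.7 in the positive libraries, against 22.7 and 24.4 in the negative libraries (log2 change -0.24 ± 0.07, adjusted p = 0.0145), and was not called on the other. That call was lost without positive replicate 1 (log2 change -0.18) and without negative replicate 2 (-0.19), while the change was larger with quantile normalization (-0.45) and loess (-0.44), where it stayed called.

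Type V collagen, which sets the diameter of type I fibrils, was called higher for all 3 chains, though the calls were small. Col5a2 had 41.4 and 39.7 in the positive libraries, against 32.3 and 32.0 in the negative libraries (log2 change 0.34 ± 0.07, adjusted p = 0.00117). Col5a3 had 8.44 and 8.1 in the positive libraries, against 6.39 and 7.09 in the negative libraries (log2 change 0.30 ± 0.08, adjusted p = 0.0053). Neither call held with quantile normalization (0.10 and 0.19) or with loess (0.11 and 0.14).

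Col5a1 was called on both probes, the brighter having 15.3 and 15.02 in the positive libraries, against 12.8 and 13.8 in the negative libraries (log2 change 0.19 ± 0.07, adjusted p = 0.0325). The dimmer probe had 0.803 and 1.0101 in the positive libraries, against 0.339 and 0.71 in the negative libraries, which varied more (log2 change 0.88 ± 0.31, adjusted p = 0.0297). The brighter probe's call was lost in both normalizations (0.02 and 0.01) and, on leaving out single arrays, without positive replicate 1 (0.18), positive replicate 2 (0.21) and negative replicate 1 (0.14). The dimmer probe kept its call with quantile normalization (0.93) and loess (0.89), but lost it without positive replicate 2 (0.71), without negative replicate 1 (0.34) and with no filter on dim probes.

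**Figure D3:**
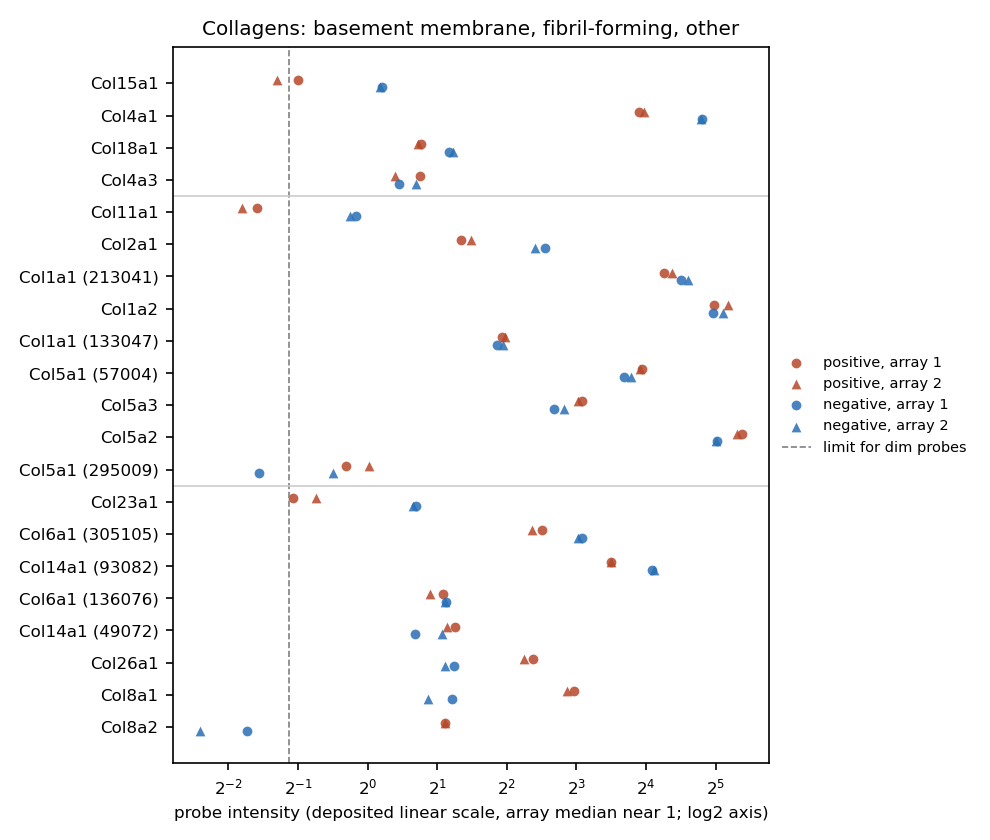
Intensity on each array (deposited scale, log2 axis) for every tested collagen probe, with probe IDs where a gene has several; each point is 1 array and the dashed line the limit for dim probes. Col8a1 and Col8a2 are higher in the positive libraries and Col4a1, Col2a1 and Col11a1 lower.

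The collagens with the greatest rise were the 2 chains of collagen VIII, a short-chain collagen of basement-membrane-like sheets such as that under the corneal endothelium. Their RefSeq promoters on GRCr8 are shown because both chains rose together: Col8a1 at chr11:56246532-56246831 and Col8a2 at chr5:143870519-143870818, plus strand, 5′ to 3′. Capitals mark the same 4 motifs, matched on either strand.
Col8a1: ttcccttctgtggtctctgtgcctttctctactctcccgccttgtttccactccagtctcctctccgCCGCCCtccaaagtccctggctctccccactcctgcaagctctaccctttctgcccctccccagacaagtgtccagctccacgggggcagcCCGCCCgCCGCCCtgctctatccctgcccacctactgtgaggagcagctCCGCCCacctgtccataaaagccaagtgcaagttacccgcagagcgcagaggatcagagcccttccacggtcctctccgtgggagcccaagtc
Col8a2: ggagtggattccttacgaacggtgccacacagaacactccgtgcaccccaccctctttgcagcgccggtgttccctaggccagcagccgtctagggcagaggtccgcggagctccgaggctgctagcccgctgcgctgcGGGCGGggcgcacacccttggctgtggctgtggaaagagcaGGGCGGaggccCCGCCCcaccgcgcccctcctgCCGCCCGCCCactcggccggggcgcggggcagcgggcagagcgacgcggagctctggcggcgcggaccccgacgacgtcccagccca
Every match in these 2 windows was a GC box, 4 for Col8a1 and 5 for Col8a2, where 2 matches overlap. Shared regulation of the chains was not tested.

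Col8a1 had 7.81 and 7.31 in the positive libraries, against 2.31 and 1.82 in the negative libraries, 3.69-fold higher (log2 change 1.88 ± 0.11, adjusted p = 1.51e-07). Col8a2 had 2.16 and 2.16 in the positive libraries, against 0.3 and 0.189 in the negative libraries, below the limit (adjusted p = 8.45e-07). Col26a1 had 5.17 and 4.72 in the positive libraries, against 2.37 and 2.16 in the negative libraries (log2 change 1.13 ± 0.09, adjusted p = 1.15e-06). All 3 were separated from the negative libraries on every array, and the groups did not overlap on 81.6% of all tested probes. Meningeal and mesothelial markers ran the same way, with sums of 1381 and 1368 in the positive libraries, against 784 and 851 in the negative libraries, and their part in the higher members was not tested.

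Of the remaining non-fibrillar collagens, Col23a1, a collagen that spans the cell membrane, had 0.475 and 0.596 in the positive libraries, against 1.62 and 1.57 in the negative libraries (log2 change -1.58 ± 0.16, adjusted p = 1.09e-05). Col6a1, a chain of the microfibrils around cells, was lower on 1 probe, with 5.65 and 5.15 in the positive libraries, against 8.48 and 8.16 in the negative libraries (log2 change -0.62 ± 0.07, adjusted p = 3.16e-05), and not called on the other. Col14a1, which sits on the surface of type I fibrils, gave opposite calls on its probes. One had 11.3 and 11.2 in the positive libraries, against 17.0 and 17.3 in the negative libraries (log2 change -0.60 ± 0.07), and the other 2.39 and 2.21 in the positive libraries, against 1.6 and 2.1 in the negative libraries (log2 change 0.33 ± 0.13). The second call was lost with loess (0.27) and without positive replicate 1 (0.27) or negative replicate 1 (0.13), and Col14a1 was the 1 member gene whose tested probes were called in opposite directions.

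Of the soluble and matricellular proteins, fibronectin was higher. Fn1, the fibronectin gene, had 49.3 and 49.1 in the positive libraries, against 24.004 and 26.3 in the negative libraries, 1.96-fold higher (log2 change 0.97 ± 0.07, adjusted p = 9.54e-07). A second Fn1 probe lay below the limit in both groups. Mgp, an inhibitor of calcification, had 222 and 229 in the positive libraries, against 135 and 141 in the negative libraries (log2 change 0.71 ± 0.07, adjusted p = 1.16e-05), and a dim Mgp probe had 0.991 and 0.769 in the positive libraries, against 0.539 and 0.135 in the negative libraries (adjusted p = 0.0139). Both Mgp probes ran the same way, the brighter with a change of 0.44 with quantile normalization and 0.42 with loess. Thbs2, which modulates contacts between cells and matrix, had 12.1 and 12.6 in the positive libraries, against 8.33 and 8.47 in the negative libraries (log2 change 0.56 ± 0.07, adjusted p = 3.41e-05).

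Fbln5, a protein of elastic fibres, had 0.839 and 0.868 in the positive libraries, against 3.68 and 3.5 in the negative libraries, 4.2-fold lower (log2 change -2.07 ± 0.10, adjusted p = 4e-08). Fbln2 had 0.42 and 0.212 in the positive libraries, below the limit, against 1.82 and 1.67 in the negative libraries (adjusted p = 1.94e-05). Sparc, a collagen-binding matricellular protein, was lower on a dim probe, with 1.69 and 1.55 in the positive libraries, against 2.5 and 2.35 in the negative libraries (log2 change -0.58 ± 0.10, adjusted p = 0.000324). Its bright probe had 216 and 236 in the positive libraries, against 264 and 252 in the negative libraries, which missed the threshold (adjusted p = 0.0516) and was called lower with either normalization. Lum, lumican, and Fbln1 had no probe above the limit in either group.

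Timp1, an inhibitor of metalloproteinases, had 36.9 and 36.1 in the positive libraries, against 15.5 and 14.7 in the negative libraries, 2.42-fold higher (log2 change 1.27 ± 0.07, adjusted p = 9.05e-08). Of the 11 tested metalloproteinase probes, 1 was higher, 4 were lower and 6 were not called. Mmp15 and Mmp17, whose products are held in the cell membrane, were lower. Mmp15 had 16.6 and 16.3 in the positive libraries, against 24.7 and 22.1 in the negative libraries (log2 change -0.50 ± 0.07, adjusted p = 0.00015), and its second probe had 14.7 and 16.6 in the positive libraries, against 21.8 and 22.6 in the negative libraries (log2 change -0.51 ± 0.08, adjusted p = 0.000178). Mmp17 had 1.64 and 1.98 in the positive libraries, against 2.99 and 2.79 in the negative libraries (log2 change -0.68 ± 0.11, adjusted p = 0.000212).

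Mmp11, called stromelysin-3, had 0.193 and 0.459 in the positive libraries, where the mean lay below the limit, against 0.864 and 0.887 in the negative libraries (adjusted p = 0.00332), but its other probe was not called. Mmp10, called stromelysin-2, had 129 and 135 in the positive libraries, against 103 and 104 in the negative libraries (log2 change 0.35 ± 0.07, adjusted p = 0.00123), and this call had a change of 0.18 with quantile normalization and was lost with loess (0.08). Mmp2, the gelatinase A of connective tissue, was not called on either probe, with 3.12 and 2.77 in the positive libraries, against 3.25 and 2.93 in the negative libraries on the brighter one. Mmp7, Mmp13 and Mmp19 were also not called, Mmp19 being called lower with either normalization. The probes of Timp4 lay below the limit in both groups.

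**Figure D4:**
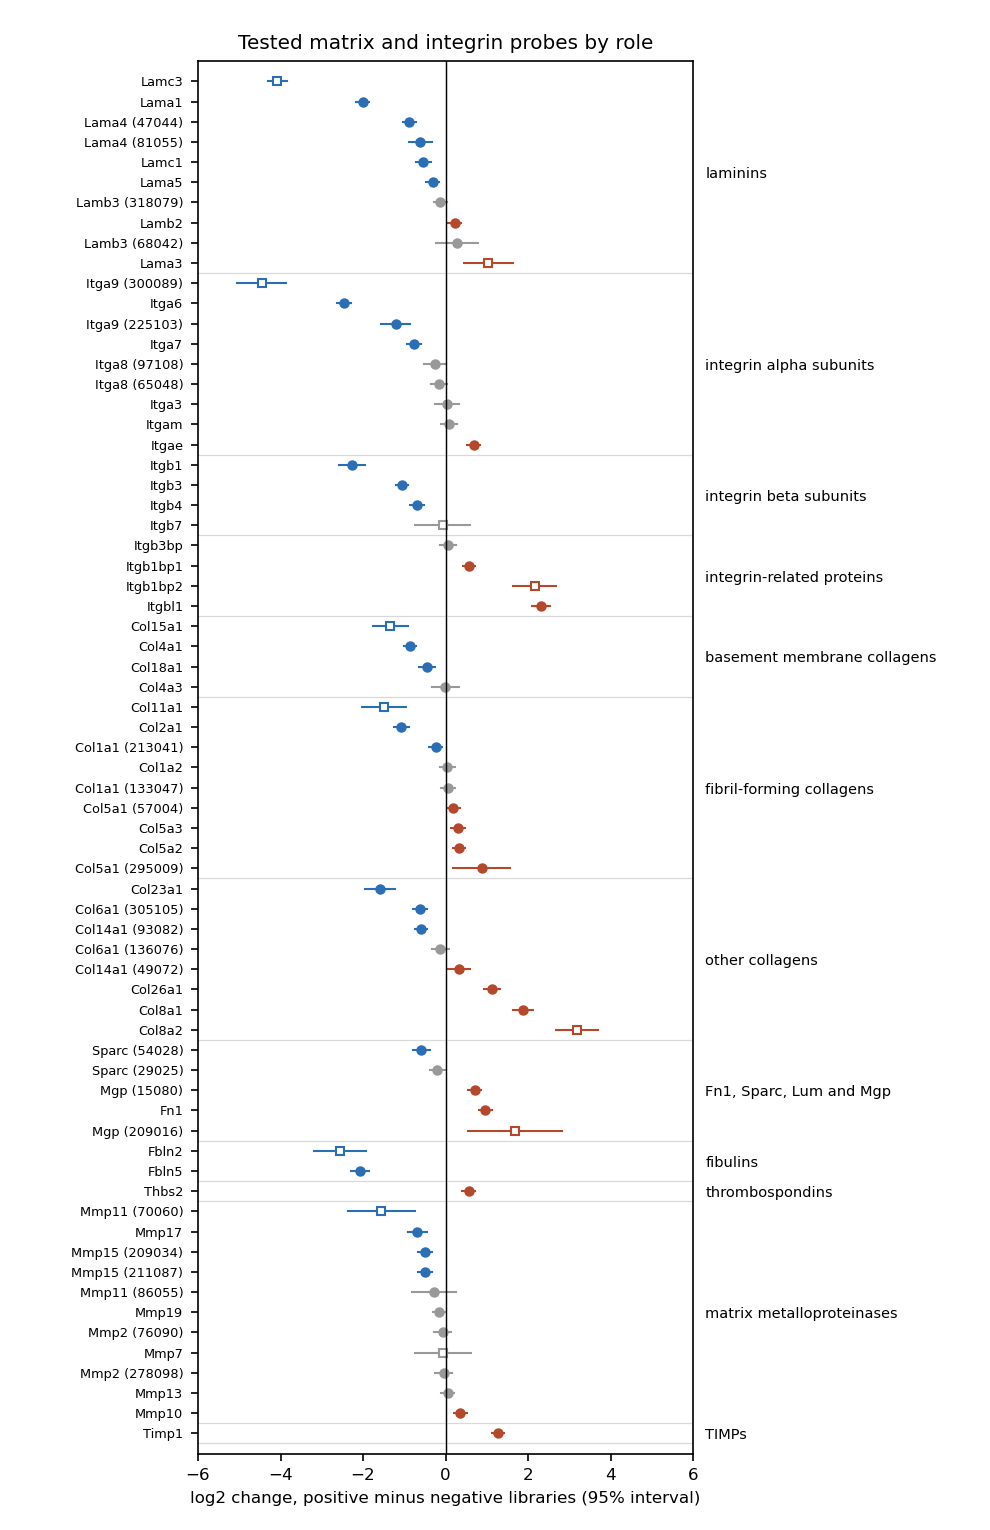
Log2 change (positive minus negative) of each tested member with its 95% interval, by role; red is called higher, blue called lower and grey not called, and open squares have 1 group below the limit for dim probes. Among members with both groups above the limit, Itga6 (-2.46) lies farthest to the lower side and Itgbl1 (2.31) farthest to the higher side.

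Among 13 genes with 2 tested probes, both probes had the same outcome in 8. In 4 genes 1 of the 2 was called, and Col14a1 was called in opposite directions. The 8 include Itga8, Lamb3 and Mmp2, for which neither probe was called, and the Lamb3 changes had opposite signs (-0.13 and 0.28). Of the 40 members not tested, 35 lay below the limit in both groups and 5 above it in 1 group, and 25 genes had no tested probe.

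Further genes of the same pathways, in 6 lists, numbered 156 read, and 82 of 116 tested were called, 43 higher and 39 lower, where 64.6% of all tested probes were called, 40.9% higher and 23.7% lower. The balance turned with scaling, to 39 higher and 49 lower with quantile normalization and 38 higher and 51 lower with loess. Proteoglycans leaned lower, with 8 of 16 tested lower and 3 higher, and a median log2 change of -0.47 against 0.11 over all tested probes. Bcan, the brain lectican brevican, had 9.3 and 9.14 in the positive libraries, against 35.2 and 35.5 in the negative libraries (log2 change -1.94 ± 0.06, adjusted p = 4.66e-09). Bgn fell by 1.36 ± 0.07 on the log2 scale (adjusted p = 1.02e-07), Cspg4, the NG2 proteoglycan, by 1.63 ± 0.07, and Ogn, a small leucine-rich proteoglycan, was 2.12-fold higher (log2 change 1.08 ± 0.08, adjusted p = 8.4e-07). Hapln4, a link protein of the nets around neurons, rose by 0.45 ± 0.07, or 0.22 with quantile normalization and 0.18 with loess, and Fmod, fibromodulin, rose by 0.57 ± 0.19.

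The integrin adhesion and signalling list had 4 of 22 tested genes higher and 13 lower. Tns1, tensin 1, had 16.7 and 17.8 in the positive libraries, against 54.5 and 53.7 in the negative libraries (log2 change -1.65 ± 0.07, adjusted p = 1.75e-08). Lims2 fell by 1.39 ± 0.07 and Cav1 by 0.96 ± 0.07 on the log2 scale. In the other direction, Crk, an adaptor of integrin signalling, rose by 1.01 ± 0.07 (adjusted p = 4.26e-07), Parva, parvin alpha, by 0.81 ± 0.07 and Lims1 by 0.78 ± 0.08.

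Other glycoproteins numbered 13 higher and 7 lower of 26 tested, and 13 and 9 with either normalization. Eln, elastin, which fibulin 5 helps to assemble into fibres, had 1.39 and 1.31 in the positive libraries, against 11.8 and 11.8 in the negative libraries, 8.73-fold lower (log2 change -3.13 ± 0.07, adjusted p = 4.51e-10). Reln, reelin, was 6.83-fold lower and Cthrc1 3.43-fold lower. Ntn1, netrin 1, an axon guidance protein, rose by 1.78 ± 0.07 on the log2 scale (adjusted p = 1.53e-08), Tgfbi by 1.53 ± 0.07 and Efemp1 by 1.82 ± 0.09. Of 15 tested collagen-processing genes, 6 were higher and 3 lower, with a median log2 change of 0.13, but 5 and 4 with quantile normalization and 5 and 5 with loess. Over all tested probes 40.9% were higher and 23.7% lower, with a median of 0.11, so this list lay near the background. The hydroxylases P4ha2 and Plod1 rose by 0.79 ± 0.07 and 0.77 ± 0.07, while Plod2 fell by 0.84 ± 0.10 and the glycosyltransferase Colgalt1 by 0.27 ± 0.09 (log2 change -0.55 with quantile normalization and -0.51 with loess). P4ha1 was lower, with 0.303 and 0.473 in the positive libraries, against 0.636 and 0.633 in the negative libraries, a call lost with quantile normalization (adjusted p = 0.0684). Fkbp10, a chaperone of collagen, had 57.2 and 64.5 in the positive libraries, against 30.1 and 31.9 in the negative libraries (log2 change 0.97 ± 0.08, adjusted p = 1.84e-06).

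Proteases and inhibitors had 9 higher and 5 lower of 19 tested, but 7 and 7 with either normalization. Serpine2, an inhibitor of thrombin, was lower by 1.83 ± 0.09 on the log2 scale (adjusted p = 5.87e-08), Adamts15 by 0.89 ± 0.07 and Adam19 by 0.41 ± 0.07. Fap, a serine protease of fibroblasts, was 2.95-fold higher (log2 change 1.56 ± 0.09, adjusted p = 2.25e-07), and heparanase, Hpse, and cathepsin L, Ctsl, rose by 1.25 ± 0.07 and 1.22 ± 0.08. Other receptors had 8 higher and 3 lower of 18 tested, but 7 and 6 with quantile normalization and 6 and 6 with loess. Since 40.9% of all tested probes were higher and 23.7% lower, the splits of these lists say little by themselves. Ddr2, a receptor of fibrillar collagen, had 8.91 and 9.46 in the positive libraries, against 3.54 and 3.5 in the negative libraries (log2 change 1.38 ± 0.07, adjusted p = 7.26e-08), and Cd9, a tetraspanin partner of integrins, fell by 1.08 ± 0.07 (adjusted p = 5.23e-07). The syndecan Sdc2 and Rpsa, listed here as a laminin receptor though this is not its only role, rose by 1.2 ± 0.07 and 0.93 ± 0.07. Hmmr, a hyaluronan receptor, and Sdc3 fell by 0.92 ± 0.08 and 0.51 ± 0.08.

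Marker genes of other cell types also differed between the groups. Of 12 tested glial markers, 10 were lower and none was higher, with a median log2 change of -3.75. The marker with the smallest p, Mog, a protein of myelin, had 0.985 and 1.0149 in the positive libraries, against 42.05 and 43.8 in the negative libraries (log2 change -5.42 ± 0.07, adjusted p = 2.6e-11), and Mobp was 40.3-fold lower. The falls varied across the list: Lgi4 fell by 4.82 ± 0.07, Sox10 by 2.25 ± 0.11 and Prx by 0.89 ± 0.08 on the log2 scale. Cldn11 and Egr2 were not called (-0.07 and 0.02), though both were lower with either normalization. Which kinds of glia the differences come from was not tested. Erbb3 and Mag lay below the limit in both groups.

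Endothelial markers were lower on 7 of 7 tested, among them Vwf and Pecam1, which fell by 2.26 ± 0.08 and 1.92 ± 0.07 on the log2 scale, and Emcn, Kdr and Tie1 lay below the limit. Mural markers were lower on 6 of 7, Abcc9 by 3.68 ± 0.09 and Cspg4, counted above, among them, and Acta2 and Notch3 lay below the limit. The meningeal and mesothelial markers ran the other way, with 13 of 16 higher and none lower, and a median log2 change of 1.12, though 11 were higher with quantile normalization and 10 with loess. Upk1b, a uroplakin, was 6.22-fold higher (log2 change 2.64 ± 0.08, adjusted p = 2.36e-09), and Slc47a1 4.09-fold. Fibroblast markers had 3 of 6 higher and 2 lower, with sums of 471 and 481 in the positive libraries, against 400.1 and 408 in the negative libraries. Most of each sum was Thy1, also listed as a neuron marker and not called. Thy1 had 332 and 353 in the positive libraries, against 323 and 328 in the negative libraries. Most of the difference was Ogn, with 124 and 111 in the positive libraries, against 53.4 and 56.9 in the negative libraries. Fap and Ogn were among those higher, and Dcn and Prrx1 fell by 0.97 ± 0.09 and 0.41 ± 0.07. Dpt, Pi16 and Twist2 lay below the limit.

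Neuron markers had 5 of 9 higher and 2 lower, with sums of 756 and 765 in the positive libraries, against 722 and 730.04 in the negative libraries, though with either normalization only 2 were higher and 3 lower. Thy1, counted above with the fibroblast markers, made up a large part of these sums. It was not called on the deposited scale and was lower with either normalization. Nefh and Nefm, neurofilament genes, rose by 1.62 ± 0.11 and 0.58 ± 0.07 (Nefm by 0.36 with quantile normalization and 0.32 with loess), and Prph, peripherin, and Elavl4 fell by 1.01 ± 0.07 and 0.88 ± 0.14. Snap25 lay below the limit.

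Blood and immune markers were 3 higher and 3 lower of 7 tested, with sums of 104 and 107 in the positive libraries, against 167 and 176 in the negative libraries. Nearly all of that difference was Csf1r, with 48.0 and 52.5 in the positive libraries, against 109 and 121 in the negative libraries. Alas2, of red cell precursors, and Csf1r, of macrophages, fell by 1.34 ± 0.07 and 1.2 ± 0.08, and Cd68 and Ptprc rose by 0.43 ± 0.07 and 0.35 ± 0.07, Ptprc losing its call with either normalization. Hair cell and inner ear epithelium markers were lower on 4 of 5 tested, with sums of 34.5 and 33.7 in the positive libraries, against 52.7 and 49.7 in the negative libraries. Cdh23 had 0.148 and 0.139 in the positive libraries, below the limit, against 4.09 and 3.95 in the negative libraries, and Otog fell by 0.54 ± 0.07. The part of these cells in the differences of the members was not tested.

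**Figure D5:**
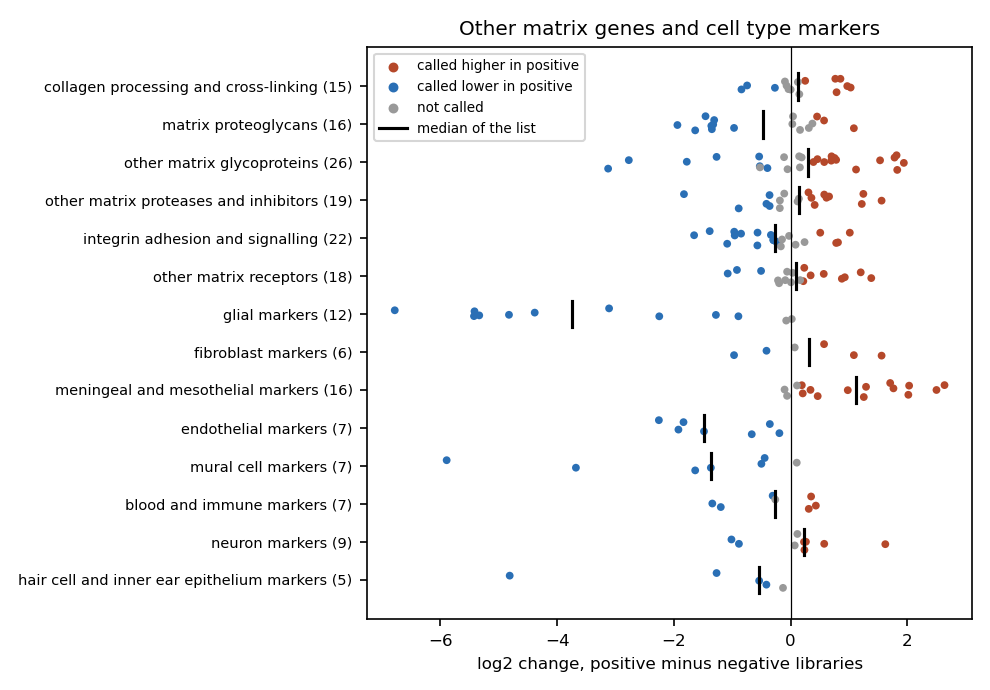
Log2 change (positive minus negative) of each tested gene of the other matrix and adhesion lists and of the marker lists, coloured by call, with each list's median as a bar and the number tested in brackets. The glial, endothelial and mural lists lie to the lower side and the meningeal and mesothelial list to the higher side.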

How the data were processed

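The data were 1-colour values from 2 positive and 2 negative arrays, made from pooled RNA of captured neurons. Whether the arrays of a group came from separate pools is not known here. The authors deposited one intensity per probe and array, on a linear scale, and their background correction and scaling are unknown here. Groups came from the titles. Probes were named from the platform annotation: 16677 had 1 symbol, 163 several and 18286 none, and all 108 members had their gene ID in a RefSeq gene table, which updated 0 symbols.

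Names of early probe IDs were used at their own rows, names of late IDs 5 table rows later, and those between were left out. Among bright probe pairs of 1 gene, log2 changes correlated at r = 0.327 within the early part (110 pairs) and, with that shift, at 0.436 between the parts (206 pairs) and 0.451 within the late part (122 pairs), against -0.144 to 0.15 at other shifts. Pairs are not independent replicates.

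Values of -9999 were left missing, and those at or below 0 (532 to 776 per array) were set to the array's 1st percentile of positive values before log2, with no further normalization. Probes below the 40th percentile of mean log2 value were left out. The test was two-sided, by lmFit and eBayes with a trend and no replicate block, in limma 3.58.1 under R 4.3.3. The precision is limited by the number of arrays. A gene of a list is given by its brightest probe. Named members are up to 4 called probes in each direction per role with the smallest p, and up to 3 genes in each direction per list (2 per marker list). The 4 genes that match the symbols but are not integrin chains were set apart on their symbols. Members and lists were chosen with earlier results of these data known. Alternatives were a replicate block, other normalizations, filters, floors and variance priors, other readings of the names, and leaving out each array. Scripts were tested on simulated data of 2 against 2 arrays, with far fewer changed probes than were called here. There, 27.9% of log2 changes of 0.5, 63.6% of 1 and 93.9% of 2 were called. A member that was not called is therefore not shown to be unchanged. Python 3.11.15 and matplotlib 3.10.9 were also used. The deviations of arrays with equal replicate numbers were unrelated (r = -0.00205 over 21046 probes).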

Additional observations from a re-analysis of the deposited data

How the results depend on the processing

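Of 587 values of 47 named members under 13 alternatives, 544 kept their call, 43 lost it and 0 changed direction; 24 could not be tested. Testing each probe on its own spread gave 32 member calls in place of 49, 51 calls in the other lists in place of 82, and 7094 over all probes in place of 13620. The early part alone gave 24 member calls among 39 tested (61.5%) and 9 of at least 2-fold (23.1%), against 49 and 22 among 68. The late part, whose names rest on the shift of 5 rows, gave 25 among 29 tested (86.2%) and 13 (44.8%). Lower calls made up 33.3% of the tested members in the early part and 55.2% in the late part. Shares over all probes were not taken for each part. A filter at the 60th percentile left 8 calls of at least 2-fold, and late names read at their own rows, an alternative chosen after seeing the data, left 14. With the replicate number as a block, members numbered 50 and calls of at least 2-fold 22, and no named member lost its call. Leaving out single arrays gave 44 to 46 member calls, 18 to 21 of at least 2-fold, 77 to 80 in the lists and 12528 to 12925 over all probes. The remaining alternatives kept these counts within 1.5 times. The calls lost on own spread numbered 17 of the 43. Dim probes, near the intensity of 0.457, limit the precision of low members.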

Other observations

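Among the members not tested, 3 were above the limit in the negative libraries only. Itgb6, a chain of an epithelial integrin, had 0.242 and 0.13 in the positive libraries, against 0.628 and 0.724 in the negative libraries. Itga1, a collagen receptor chain, had 0.133 and 0.246 in the positive libraries, against 0.506 and 0.528 in the negative libraries, and Col7a1, of anchoring fibrils, had 0.259 and 0.048, against 0.598 and 0.588. A Lamb2 probe was above the limit in the positive libraries only, with 0.727 and 0.636, against 0.304 and 0.188 in the negative libraries.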
